A study of Mus musculus with 3 samples.

Results

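Solute carrier genes outside the amino acid transporter families were examined in mouse embryonic stem cells with a conditional knockout of Pou5f1. They were chosen by symbol and selected on mean signal, as genes named Slc with a family number, without the families Slc1, Slc3, Slc7, Slc36, Slc38 and Slc43 and without Slc22a18, Slc2a1 and Slc2a3. The array annotation named 302 such genes, with 558 probe sets, and 205 genes of 43 families had a probe set with a mean signal of at least 56 over the 3 arrays. The mean signal is the one measured value used to choose them, and the 205 are 1.61% of the 12704 genes kept by the same threshold. The cells are embryonic stem cells, which come from the early embryo and renew themselves in culture, and Pou5f1 encodes Oct3/4, a transcription factor they need to stay pluripotent. Day 0, day 1 and day 2 of the conditional knockout were profiled with 1 array each, and all the cells carried the conditional allele. The sources used here do not give the strain, the number of clones or the means of induction. Because the later days have no parallel culture with the gene intact, loss of Oct3/4 cannot be told apart from the passage of time or from an inducing treatment.

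Solute carriers are membrane proteins that move ions, sugars, metals, nucleotides, vitamins and metabolites across the plasma membrane, the mitochondrial inner membrane and the membranes of organelles. They work as exchangers, as cotransporters driven by an ion gradient or as facilitators, and a family number groups proteins of related sequence. In the embryo and the placenta they take up nutrients, and within a dividing cell they supply mitochondria, the Golgi apparatus and the lysosome. Not every symbol of the set is a carrier: Slc9a3r1 and Slc9a3r2 are scaffold proteins, Slc4a1ap is an adaptor, and Slc2a4rg-ps, counted here by its family number among the sugar carriers, is by its symbol a pseudogene of a regulator.

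Promoters of genes with large differences in either direction are shown first, because they are the regulatory sequence beside members that moved. They are the genes that differed most among those with a single promoter in the RefSeq table of assembly GRCm38.p6. In it 158 of the 205 genes had an entry, and 6 of the 12 at least 2-fold lower at day 2. Slc47a1, with the lowest difference of the 205, had none. Each line gives the 250 bases before the transcription start, 5′ to 3′ on the gene's strand, with CG dinucleotides in capitals. Slc25a24 (chr3:109122899-109123148, plus strand) and Slc30a4 (chr2:122702664-122702913, minus strand) were higher at day 2, and Slc27a2 (chr2:126552774-126553023, plus strand) and Slc25a36 (chr9:97111042-97111291, minus strand) were lower.
Slc25a24: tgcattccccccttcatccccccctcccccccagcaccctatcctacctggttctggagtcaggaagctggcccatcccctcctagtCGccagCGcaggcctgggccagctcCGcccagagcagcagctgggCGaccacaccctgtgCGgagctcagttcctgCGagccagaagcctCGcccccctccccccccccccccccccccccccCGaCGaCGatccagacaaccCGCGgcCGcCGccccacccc
Slc30a4: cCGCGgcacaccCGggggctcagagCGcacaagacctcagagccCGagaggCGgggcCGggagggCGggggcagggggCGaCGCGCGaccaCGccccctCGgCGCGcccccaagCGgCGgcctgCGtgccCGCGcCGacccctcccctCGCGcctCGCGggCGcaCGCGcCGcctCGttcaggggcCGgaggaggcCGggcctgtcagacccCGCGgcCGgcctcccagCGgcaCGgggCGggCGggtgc
Slc27a2: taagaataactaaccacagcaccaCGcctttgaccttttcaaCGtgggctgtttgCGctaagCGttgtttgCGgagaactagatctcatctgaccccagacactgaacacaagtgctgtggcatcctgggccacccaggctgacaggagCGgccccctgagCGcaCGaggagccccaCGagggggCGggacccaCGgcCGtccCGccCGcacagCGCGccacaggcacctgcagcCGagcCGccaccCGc
Slc25a36: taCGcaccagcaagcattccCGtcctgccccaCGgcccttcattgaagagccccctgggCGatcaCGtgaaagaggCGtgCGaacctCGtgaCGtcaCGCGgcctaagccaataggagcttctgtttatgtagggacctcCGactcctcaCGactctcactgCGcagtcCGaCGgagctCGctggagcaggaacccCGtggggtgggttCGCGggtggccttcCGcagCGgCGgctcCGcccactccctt
The stretches hold 14, 40, 19 and 24 CG dinucleotides in the order printed. The observed over expected CG ratio had a median of 0.74 for 11 genes at least 2-fold higher at day 2, of 0.58 for 6 genes at least 2-fold lower, of 0.63 for all 158 solute carriers with an entry and of 0.38 for all 27025 genes of the table. The octamer ATGCAAAT, the DNA element that Oct3/4 and other POU factors bind, was searched on both strands. It was found for 1 of the 158 genes, Slc35a2, which stayed within 2-fold, against 1.81% of all genes in the table. The palindrome GCCNNNGGC, the element of AP-2 factors such as the trophoblast factor Tfap2c, was found for 37 of 158 genes (23.4%), against 15.4% of all genes, and among the printed stretches in that of Slc27a2. The TATA box letters TATAAA, on either strand, were found for 10 of 158 genes (6.33%), against 14.3% of all genes. The AP-2 letters were found for 3 of the 11 genes at least 2-fold higher and for 2 of the 6 at least 2-fold lower. The median share of G and C was 61.2% for the 158 genes and 52.4% for all genes of the table. The 158 were kept by their signal and the genes of the table were not, so these values compare unlike sets. The part of base composition in them was not tested. These are letter matches in a short window and not binding data.

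A signal here is the brightness that the MAS5 method gives for a probe set, a group of short probes against 1 transcript, and a run of 3 signals is in the order day 0, day 1 and day 2. Before the carriers, the arrays were checked against markers of the labelled cells. The targeted gene, Pou5f1, gave signals of 2400 (day 0), 40.8 (day 1) and 15.5 (day 2). The summed signal of 10 embryonic stem cell markers was 121487, 73304 and 25154 on the same days, and all 10 were at least 2-fold lower at day 2 than at day 0. The summed signal of 10 trophectoderm markers, the genes of the lineage that forms the placenta, was 10798, 16170 and 60429, with 8 of the 9 that passed the threshold at least 2-fold higher at day 2 and Elf5 below the threshold. Eomes, the other that passed, was highest at day 1 and lowest at day 2 (381.4, 844.1 and 295.4). In the day 2 sum, Krt18 gave 24611 and Krt8 gave 18359. Of 9 fibroblast markers, which feeder cells would bring, 6 were below the threshold, Col1a1 and Col3a1 among them. The summed signal of all 9 was 753.9, 667 and 564.1. Of the 3 that passed, Thy1 fell (399.8, 274.6 and 89.3), while Col1a2 (96.8, 102 and 127.2) and Pdgfrb (60.8, 144.4 and 122.9) ended higher. These lists move with the days, and their part in the carrier results was not tested. In RNA from whole cultures, fewer cells of a type and less RNA per cell cannot be told apart.

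Most solute carrier genes stayed within 2-fold of their day 0 signal. Differences were taken after adding a constant of 55.9 to every signal, which damps those of dim genes. Every fold given includes the constant, so it falls below the ratio of the printed signals, most for dim genes. The brightest probe set stands for its gene unless another is named. A gene past 2-fold differs by at least 1 on the log2 scale; a difference with no days named is day 2 against day 0. At day 2, 12 of 205 genes (5.85%) were at least 2-fold higher than at day 0, against 5.25% of all genes, and another 12 (5.85%) were at least 2-fold lower, against 5.65% of all genes. Both shares are near the background, so the number of carriers that moved is not a result about carriers. Which ones moved is described below. Counts by carrier group are to be read beside the same 5.25% and 5.65% of all genes. The median difference of the 205 genes between day 2 and day 0 was 0.10 on the log2(signal + 55.9) scale, beside 0.05 for all genes, and 117 genes were above 0. At day 1, 3 genes were at least 2-fold higher than at day 0 (1.46%, against 2.4% of all genes) and 9 at least 2-fold lower (4.39%, against 2.59%). Between day 2 and day 1, 2 genes were at least 2-fold higher (0.976%, against 2.09%) and 5 at least 2-fold lower (2.44%, against 2.65%). In all 3 comparisons 171 genes stayed within 2-fold. The comparisons share arrays, so their counts are not independent, and with 1 array a day no difference has a replicate error or a test. For scale, of 31 genes of the amino acid carrier families that were left out, 2 passed 2-fold upwards and 4 downwards at day 2.

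**Figure D1:**
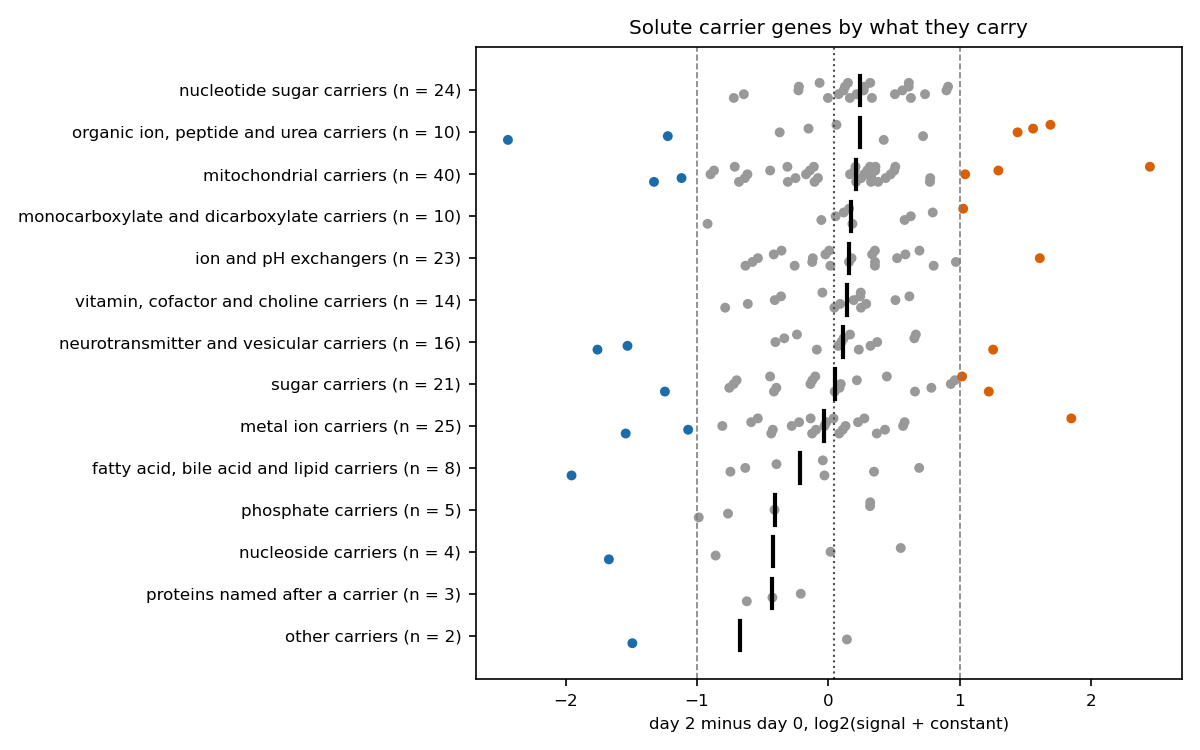
Difference between day 2 and day 0 on the log2(signal + constant) scale for each of the 205 solute carrier genes, 1 point per gene, in rows by what the family carries. Black bars are row medians, dashed lines mark 2-fold, the dotted line is the median of all genes (0.05), and orange and blue points are the 12 genes past 2-fold upwards and the 12 past it downwards, which lie in 10 of the 14 rows.

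The Slc25 family, most of it in the inner mitochondrial membrane, is grouped here by its number as mitochondrial carriers. It held the gene with the highest difference between day 2 and day 0 among the 205. Past 2-fold at day 2 were 3 of 40 measured members upwards and 2 downwards, with a median difference of 0.21. Slc25a24, a calcium-regulated carrier that exchanges ATP-magnesium for phosphate, had signals of 261.9 (day 0), 436.3 (day 1) and 1681 (day 2). It was 5.46-fold higher at day 2 than at day 0, and its difference was 0.63 over the first day and 1.82 over the second. Slc25a31, an ADP/ATP carrier known from the testis, had signals of 129.1, 225.8 and 398.4 over the days, a difference of 1.30. Slc25a10, which carries dicarboxylates such as malate and succinate, had 460.2, 775 and 1008, a difference of 1.04. Slc25a36, a pyrimidine nucleotide carrier, was lower, with signals of 3972, 1928 and 1550. With the constant added, it was 2.03-fold lower at day 1 than at day 0, and within 2-fold with quantile normalisation. Slc25a40, a carrier linked to mitochondrial glutathione, had 1423 at day 0, 763.2 at day 1 and 626 at day 2, which is 2.17-fold lower. The ADP/ATP carrier gene Slc25a5 (24568, 26627 and 22294) and the phosphate carrier gene Slc25a3 (21414, 23929 and 24750), the family's probe sets with the highest signals, differed by at most 1.19-fold and 1.16-fold in any comparison. Probe sets of Slc25a5 that end in _x_at can bind related sequences, and its 8 probe sets ranged between −0.87 and −0.12 for day 2 against day 0.

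Metal ion carriers had a median near 0 (−0.03), while single zinc carriers differed in opposite directions. Among 25 measured genes, 1 was past 2-fold upwards and 2 downwards at day 2. Slc30a4, which moves zinc out of the cytosol into vesicles, had signals of 169.9 (day 0), 409.6 (day 1) and 759 (day 2). With the constant added, it was 3.61-fold higher at day 2 than at day 0. Slc39a4, a zinc importer of the plasma membrane, had 1307, 650.1 and 412, and was 2.91-fold lower. The signals of both ran one way over the days. Slc39a14, an importer of zinc and of iron not bound to transferrin, was lowest at day 1 by its brightest probe set (588.8, 204.9 and 251.9). Another was lowest at day 1 as well (259.5, 157.2 and 165.3). The dimmest was lowest at day 2 (94.1, 54.8 and 20.7) and below the constant from day 1. Slc30a2, another vesicular zinc carrier, peaked at day 1 with a signal of 1882, against 972 at day 0 and 907.8 at day 2. The importer genes Slc39a10 (2823, 3476 and 2589) and Slc39a7, which releases zinc from the secretory pathway (1752, 2084 and 2280), differed by at most 1.34-fold and 1.29-fold in any comparison.

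Of 28 genes for carriers of organic ions, peptides and urea on the array, 10 passed the threshold. They included 5 of the 24 genes past 2-fold. At day 2, 3 of 10 measured genes were past 2-fold upwards and 2 downwards, with a median of 0.24. Slc22a5, which imports carnitine, had signals of 344.4 (day 0), 551.8 (day 1) and 1125 (day 2), a difference of 1.56. Slc22a23, an orphan member of the same family, had 114.4, 198.6 and 494.5, a difference of 1.69. The oligopeptide cotransporter genes went opposite ways. Slc15a2 had 209.3, 375 and 664.8 and was 2.72-fold higher at day 2 than at day 0, although its other probe sets stayed within 2-fold. Slc15a1 had 149.8, 106.3 and 32.3 and was 2.33-fold lower, with a day 2 signal below the constant. The other measured gene of the pair's family, Slc15a4 of the lysosome, had 480.1, 577.3 and 828.5, a difference of 0.72. Slc47a1, which exports organic cations in exchange for protons, had the lowest difference between day 2 and day 0 of the 205, with signals of 505.4, 68.8 and 47.6. With the constant added, it was 4.50-fold lower at day 1 and 5.42-fold lower at day 2 than at day 0. Its day 2 signal lay below the constant.

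Sugar carriers other than the Slc2a1 and Slc2a3 genes had a median of 0.05 over 21 genes, which turned negative in 4 of 8 alternatives. The group is set by family number, so not every member is a sugar carrier. Past 2-fold at day 2 were 2 of the 21 genes upwards and 1 downwards. Slc2a12, a glucose carrier, had signals of 45.4 (day 0), 132 (day 1) and 180.6 (day 2), a difference of 1.22 that starts below the constant. Slc2a8, a glucose carrier of inner membranes, had 739.2, 548 and 279.9, a difference of −1.24. Slc5a3, which imports myo-inositol, had 204.2, 359.4 and 471.4, a difference of 1.02, against 0.14 at its other probe set. Slc37a3 (1259, 1053 and 1141) and Slc45a4 (1499, 1577 and 1552) differed by at most 1.19-fold and 1.05-fold in any comparison.

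Among ion and pH exchangers, 1 of 23 measured genes passed 2-fold at day 2. Slc24a3, which exchanges sodium for calcium and potassium, had signals of 38.3 at day 0, below the constant, 120.4 at day 1 and 231.9 at day 2, a difference of 1.61. Slc12a7, a potassium chloride cotransporter, had 1959, 2240 and 1797, and Slc12a2, the sodium potassium chloride cotransporter, had 1264, 1368 and 1418. They differed by at most 1.24-fold and 1.12-fold in any comparison by their brightest probe sets, while another of Slc12a2 gave −0.44, and the median of the 23 genes was 0.16.

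Neurotransmitter and vesicular carriers had a median of 0.11 over 16 genes, which turned negative in 1 of 8 alternatives, and 1 gene was past 2-fold upwards and 2 downwards at day 2. Slc6a15, which carries branched-chain amino acids and proline although its family lies outside those left out, had signals of 415 (day 0), 129 (day 1) and 83.4 (day 2). It was 3.38-fold lower at day 2 than at day 0, and 2.55-fold lower at day 1. Slc6a14, a carrier of neutral and cationic amino acids, went the other way with 23.4, 84.4 and 133.5, a difference of 1.26 that starts below the constant. Slc17a9, the vesicular nucleotide carrier, had 573.6, 344.2 and 162.3, a difference of −1.53. The taurine carrier gene Slc6a6 (2874, 2695 and 3231) differed by at most 1.2-fold in any comparison by its brightest probe set, while another (188, 152.4 and 87.1) gave −0.77. The creatine carrier gene Slc6a8 had no settled direction, since 1 probe set gave 1559, 1933 and 2510, a difference of 0.67, and the other 1595, 1022 and 1305, a difference of −0.28. The dopamine carrier gene Slc6a3, with signals of 52, 30.7 and 114.1, was at 0.97 for day 2 against day 1, with the day 0 and day 1 signals below the constant.

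Nucleoside, fatty acid and phosphate carriers had medians below 0, of −0.42 over 4 genes, −0.22 over 8 and −0.41 over 5. The nucleoside carriers had 2 of 4 genes above 0, and their median was 0.018 when no filter was used. Slc29a1, the equilibrative nucleoside carrier of the plasma membrane, had signals of 6864 (day 0), 4415 (day 1) and 2118 (day 2), and was 3.18-fold lower at day 2 than at day 0. Its difference was −0.63 over the first day and −1.04 over the second. Slc29a4, a carrier of monoamines, had 579.3, 930.9 and 587.2, but its other probe set gave 157.6, 66.9 and 71.7, the opposite direction for day 1 against day 0. Slc27a2, an acyl-CoA synthetase linked to fatty acid uptake, had 708.5, 98.1 and 141.3. It was lowest at day 1, at 4.96-fold below day 0 with the constant added. Slc27a4 of the same family had 534.3, 605.5 and 695.7, and Slc10a7 had 632.8, 428.8 and 468.2, with differences of at most 1.27-fold and 1.42-fold in any comparison, although another Slc10a7 probe set was at 0.69 for day 1 against day 0. Slc20a1, a sodium-dependent phosphate importer, had 4862, 2012 and 2842, and its relative Slc20a2 had 1341, 947.3 and 996.5. Slc20a1 was 2.38-fold lower at day 1 and 1.70-fold lower at day 2 than at day 0. The kidney phosphate carrier gene Slc34a1, with signals of 26.2, 105.3 and 46.5, was at 0.97 for day 1 against day 0 and below the constant on the other days.

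Monocarboxylate carriers included 1 of 10 genes past 2-fold at day 2, Slc16a6, with signals of 265 (day 0), 349 (day 1) and 598.5 (day 2). Slc16a1, the lactate and pyruvate carrier, had 3889, 3061 and 6044, a difference of 0.97 over the second day and of 0.63 over both days. Slc16a3, which exports lactate, had 791.1, 716.7 and 761. The median of the 10 genes was 0.17, and 8 were above 0.

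The Slc35 family, grouped here by its number as nucleotide sugar carriers, and the vitamin, cofactor and choline carriers held no gene past 2-fold at day 2. What each Slc35 member carries was not checked. Of 24 measured Slc35 genes 18 (75%) were above 0, beside 54.1% of all genes, and they ranged from −0.72 to 0.91 with a median of 0.24, which was 0.34 for day 2 against day 1 alone. Slc35b1 had signals of 2837 (day 0), 3444 (day 1) and 3187 (day 2), and Slc35g1 had 1114, 1631 and 1405. The 14 vitamin, cofactor and choline genes ranged from −0.78 to 0.62 with a median of 0.14. Among them were the thiamine carrier gene Slc19a2 (1778, 1435 and 2124) and the choline carrier gene Slc44a1 (2106, 2424 and 2247). The scaffold gene Slc9a3r1 had 2722, 3062 and 1752, a difference of −0.62, and the adaptor gene Slc4a1ap had 571, 428.6 and 486.5. Slc66a2 had 288, 129 and 66.4, a difference of −1.49 that its other probe sets did not reach, and Slc66a1, a lysosomal exporter of cationic amino acids, had 477.6, 505 and 533.

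**Figure D2:**
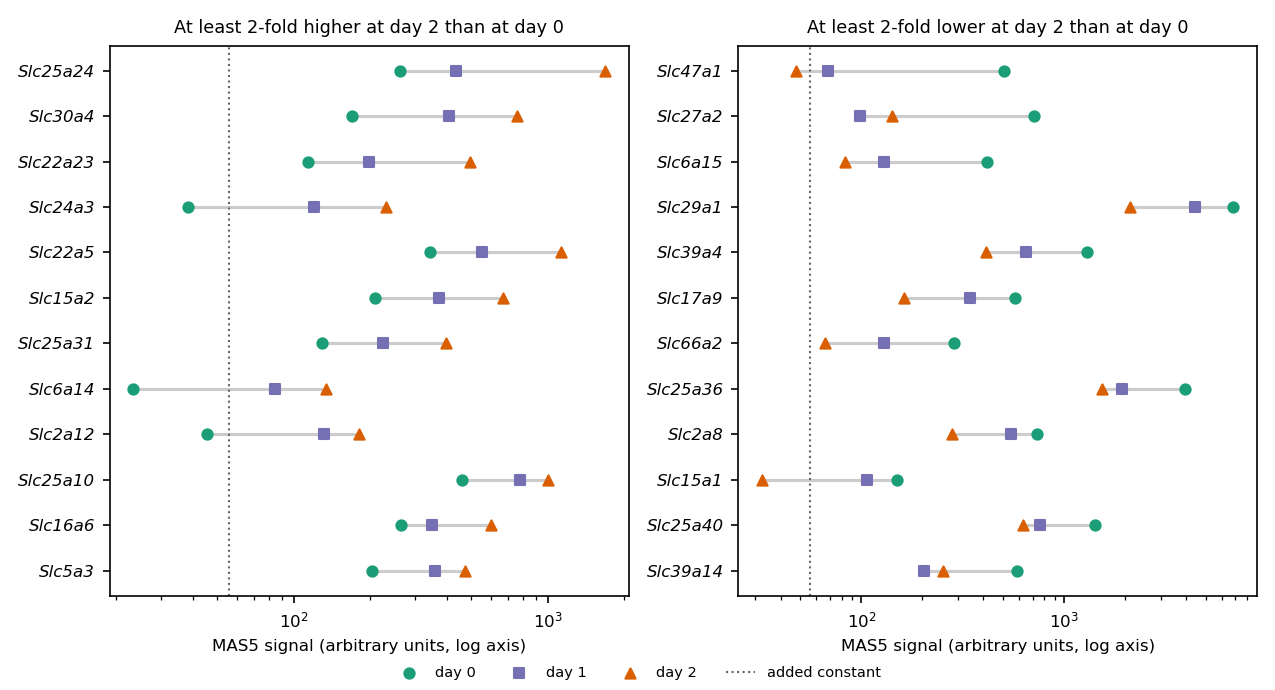
MAS5 signal on a log axis at day 0 (circles), day 1 (squares) and day 2 (triangles) for the 12 solute carrier genes at least 2-fold higher at day 2 than at day 0 (left) and the 12 at least 2-fold lower (right), 1 array per day, with the added constant of 55.9 as a dotted line. In the left panel the day 1 square lies between the other days for all 12 genes, and in the right panel for 10 of 12, with Slc27a2 and Slc39a14 lowest at day 1. Among all genes, day 1 lay between the other days for 591 of 667 higher genes and 618 of 718 lower genes.

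The genes past 2-fold at day 2 differed in how much of the difference was present at day 1. Among the 12 higher genes, 6 had reached at least 50% of their log2 difference at day 1, and 1, Slc30a4, was past 2-fold by then, at 1.04, which became 0.89 with the constant doubled and 0.90 with equal medians of ribosomal protein genes. Among the 12 lower genes, 8 had reached at least 50% and 5 were past 2-fold, namely Slc27a2, Slc47a1, Slc6a15, Slc39a14 and Slc25a36. Of these 5, Slc39a14 was at −0.77 and Slc25a36 at −0.93 with the mean over probe sets. For all genes the shares at 50% were 47.4% of 667 higher genes and 52.9% of 718 lower genes. The shares past 2-fold at day 1 were 8.33% of the higher and 41.7% of the lower carriers, with 12 genes behind each, against 24.6% and 35.9% for all genes. A signal below the constant at 1 or more days, which limits the difference and leaves its order unresolved, was present for 3 of the 12 higher genes and 2 of the 12 lower ones.

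Another 10 genes were past 2-fold only in a comparison with day 1 (4.88% of 205, against 2.83% of all genes). Slc25a20, which carries acylcarnitines into mitochondria, peaked at day 1, with signals of 3758 (day 0), 8882 (day 1) and 4735 (day 2). It was 2.34-fold higher at day 1 than at day 0, and its other probe set gave the same shape (2291, 5153 and 2972). Slc25a53 peaked as well (86.5, 273.5 and 142.1), but its other probe set gave 162.5, 201.7 and 102.7, a difference of 0.24 for day 1 against day 0. Slc30a2, described above, and Slc27a3 (255.4, 395.3 and 129.9) were past 2-fold only for day 2 against day 1. So were Slc16a5 (66.6, 110.9 and 8.90) and Slc25a34 (64.7, 128.9 and 10.1), both below the constant at day 2. With the constant doubled, the call that put Slc30a2, Slc16a5, Slc25a34 and Slc25a53 among the 10 was lost. So was that of Slc35f2 and Slc5a1, given below. With the constant halved Slc16a5 (−1.36) and Slc25a34 (−1.28) were also past 2-fold for day 2 against day 0.

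The remaining 4 of these 10 genes were lowest at day 1 by their brightest probe sets. They were Slc20a1, described above, Slc25a12, a mitochondrial aspartate and glutamate carrier (2436, 1117 and 1466), Slc35f2 (478.2, 203.9 and 286.2) and Slc5a1, the sodium glucose cotransporter (145.6, 35.3 and 66.4). The day 1 signal of Slc5a1 lay below the constant. For day 1 against day 0 the other probe set of Slc20a1 gave −1.02, while the others of Slc25a12 gave −0.29 each. That of Slc35f2 gave −0.38. These other probe sets of Slc25a12 (144, 107.1 and 90, and 140, 104.1 and 92.5) were lowest at day 2. So was that of Slc35f2 (92.6, 58.1 and 42.1). Slc25a12, Slc35f2 and Slc5a1 are named because their signals put them among these 10.

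**Figure D3:**
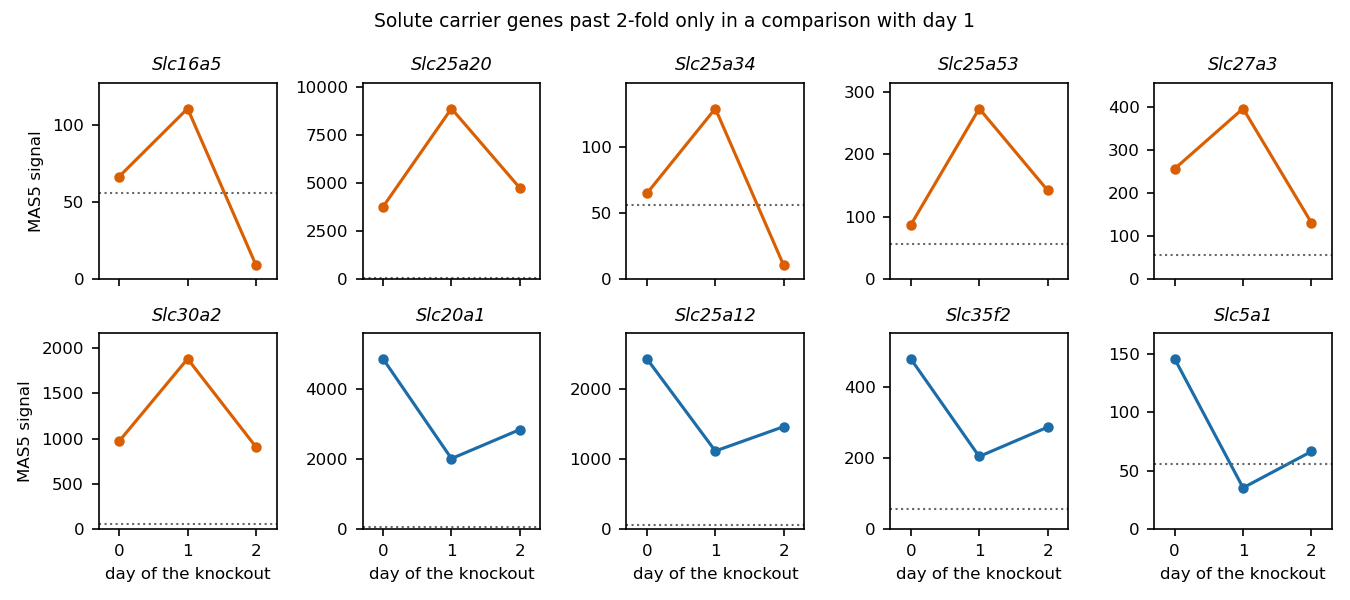
MAS5 signal on linear axes from 0 by day for the 10 solute carrier genes that were past 2-fold only in a comparison with day 1, 1 array per day, with the added constant of 55.9 as a dotted line. Orange genes were highest at day 1, among them Slc25a20 at 8882, and blue genes were lowest at day 1, among them Slc20a1 at 2012.

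Probe sets of the same gene are the only repeat measurement in these arrays. For 88 solute carrier genes with several kept probe sets, the pooled standard deviation between them of the log2 difference from day 0 was 0.37 at day 2 and 0.33 at day 1, beside 0.34 and 0.30 for all genes, and that of day 2 from day 1 was 0.30 for both. It covers probe error and leaves out variation between cultures and hybridisations. Of the 24 genes past 2-fold at day 2, 14 rest on a single probe set. The other 10 have several, which all share the sign for 8 genes and all pass 2-fold for 6, Slc25a24, Slc22a5, Slc6a14, Slc25a10, Slc25a36 and Slc17a9. Slc15a2 was at 1.44, 0.49 and −0.06, Slc5a3 at 1.02 and 0.14, Slc39a14 at −1.07, −0.97 and −0.51, and Slc66a2 at −1.49, −0.95 and 0.22, so these 4 depend on the probe set. Outside the 24, the kidney glucose cotransporter gene Slc5a2 gave 0.96 and −1.0 and the nucleoside carrier gene Slc29a3 gave −0.86 and 0.83, which leaves their direction unresolved.

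**Figure D4:**
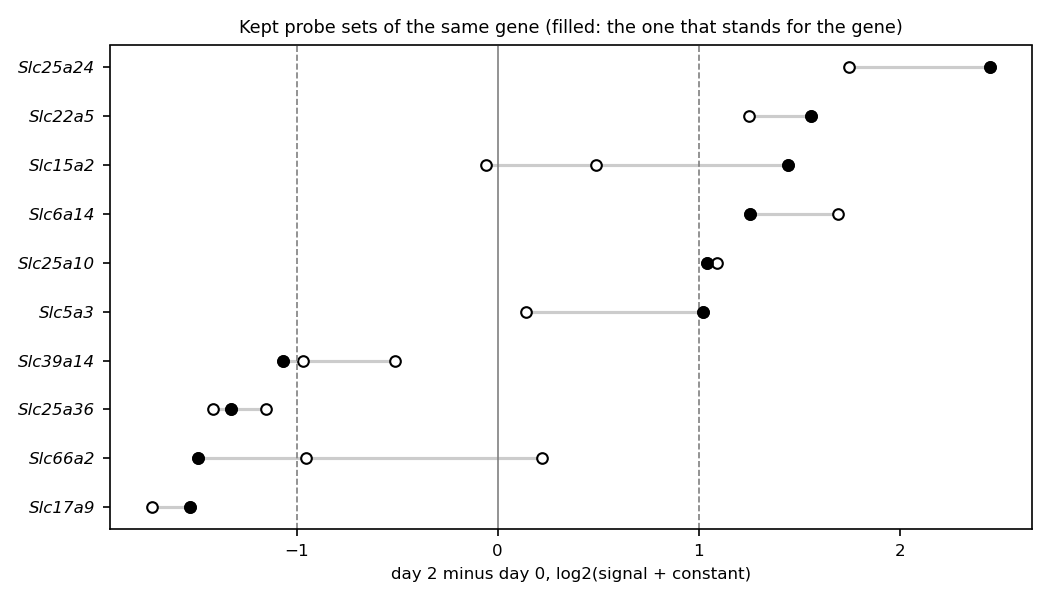
Difference between day 2 and day 0 on the log2(signal + constant) scale for each kept probe set of the 10 solute carrier genes past 2-fold that have several. Filled points are the brightest probe set, taken for the gene, open points are the others, and dashed lines mark 2-fold. The points of Slc66a2 span −1.49 to 0.22 and those of Slc25a10 lie together at 1.04 and 1.09.

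Proteins that work with carriers were looked at as well. Among 35 measured genes of a list of partners, which holds the transferrin receptor, metallothioneins, carbonic anhydrases, beta subunits of the sodium pump and the monocarboxylate carrier partner basigin, 2 (5.71%, against 5.25% of all genes) passed 2-fold upwards and 0 (against 5.65%) downwards at day 2, with a median of 0.14. They were the carbonic anhydrase genes Car2, with signals of 3413 (day 0), 5100 (day 1) and 9398 (day 2), and Car4, with 231.8, 182.1 and 604.4. Carbonic anhydrases make the bicarbonate and protons that exchangers move. Chosen after their values were seen, the hexokinase gene Hk1 peaked at day 1 (1711, 4310 and 2058) and the metallothionein gene Mt2 was at 1.05 for day 2 against day 1 (15537, 12617 and 26229). Of 13 organic anion carriers of the Slco family 5 passed the threshold. Among these 5, 1 was at least 2-fold lower at day 2, against 5.65% of all genes. It was Slco4c1 (166.9, 84.6 and 50.7), at −1.06, with a day 2 signal below the constant.

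The threshold on mean signal cuts through genes of similar signal. Just inside it lay Slc26a8 (78.3 at day 0, 53.4 at day 1 and 36.7 at day 2), Slc17a7 (70.3, 59.3 and 39.6) and Slc9a3 (28.5, 94.1 and 52.1). Just outside lay Slc2a6 (6.20, 128.5 and 28.2), Slc26a4 (16.4, 81.3 and 62.5) and Slc22a15 (64.1, 58.5 and 37.2). Of the 205 genes, 185 reached 56 on all 3 arrays, 16 on 2 and 4 on 1, and a gene kept through 1 bright array had to differ between days. The other 97 genes did not pass and are not counted above.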

How the data were processed

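Trizol-extracted, column-purified total RNA was labelled with biotin for Affymetrix arrays, per the labels' protocols. The authors deposited 1 intensity per probe set and array, made with MAS5 per the submitters' processing notes (version not given in the sources used here). The deposited intensities are linear and share a 2% trimmed mean of 498. The day 2 array also holds 64 control probe sets, which were left out, leaving 45037. The sources used here do not say whether that array was exported apart.

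Here each array was scaled to the common trimmed mean, which changed nothing visible. The constant 55.9, the 40th percentile of all signals, was added before log2, which understates differences of dim genes. Of 45037 probe sets, 34945 name 1 gene in the platform annotation, 932 several and 9160 none. Probe sets with a mean signal of at least 56 were kept (26902), and the one with the highest mean stands for its gene. All 302 solute carrier symbols matched the gene table of GRCm38.p6 by Entrez identifier. Printed signals are those deposited, and folds are 2 to the power of the log2 difference. With 1 array a day there is no test, and genes were counted by size, at 2-fold. The code was tested on simulated data. Python 3.11.15, numpy 2.4.6 and pandas 2.3.3 were used.

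Carriers were grouped by family number. Named are genes past 2-fold at day 2, the 5 highest and 5 lowest for each comparison with day 1, the 2 brightest of each group, those nearest the threshold, those whose probe sets differ by over 1.5 and partner genes past 2-fold. Exceptions are stated. Members and lists were chosen with earlier results of these data known. Alternatives were the constant, the filter, the scaling and the probe set rule. Listed partner genes without a probe set of their own were not analysed here.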

Additional observations from a re-analysis of the deposited data

How the results depend on the processing

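Each count and median was recomputed under 8 alternatives, chosen with earlier results of these data known. The 24 genes past 2-fold at day 2 against day 0 are 11.7% of the 205, and this share stayed beside that of all genes (8.29% against 7.97% with the constant doubled, 15.6% against 13.5% with it halved). Of the 12 higher genes 6, and of the 12 lower genes 9, were past 2-fold in every alternative that measured them. Slc66a2, at −1.49, turned to 0.22 without the probe sets marked _x_at, _s_at or _a_at. Slc39a14, Slc25a10, Slc16a6, Slc6a14, Slc15a1, Slc5a3 and Slc2a12 were within 2-fold with the constant doubled, as were Slc15a2, Slc5a3, Slc39a14 and Slc66a2 with the mean over probe sets, Slc16a6 and Slc5a3 with quantile normalisation, and Slc25a10, Slc16a6 and Slc5a3 with equal medians of ribosomal protein genes. For day 1 against day 0, Slc30a4, Slc25a53, Slc35f2 and Slc5a1 were within 2-fold with the constant doubled. For day 2 against day 1, Slc22a23, Slc30a2, Slc16a5 and Slc25a34 were so. In these comparisons with day 1, Slc30a4, Slc30a2 and Slc29a1 were within 2-fold with equal ribosomal medians, and Slc25a36 with quantile normalisation. With the mean over probe sets, Slc25a36, Slc25a53, Slc39a14, Slc25a12 and Slc35f2 were within 2-fold for day 1 against day 0. With the constant doubled, the higher genes numbered 7 at day 2 against day 0, 1 at day 1 against day 0 and 1 at day 2 against day 1, and the lower genes 2 at day 2 against day 1. With it halved, 8 were higher at day 1 against day 0 and 8 lower at day 2 against day 1. The filter at the 60th percentile left 3 lower at day 2 against day 1, and no filter gave 5 higher at day 1 against day 0 and 8 lower at day 2 against day 1. Equal medians of ribosomal protein genes gave a median of −0.07 at day 2 against day 0 for all genes, which was 0.05 before, and of −0.0075 for the carriers, whose median at day 1 against day 0 was −0.022, with 9 higher and 14 lower carriers at day 2, 14 lower at day 1 against day 0, and 4 higher and 3 lower at day 2 against day 1. The mean over probe sets gave 5 lower at day 1 against day 0 and a median of −0.30 for the group of Slc66a1 and Slc66a2, which was 0.22 without the probe sets named above. The nucleoside carrier median was 0.018 with no filter, over 5 genes. The sugar carrier median changed sign in 4 alternatives and the neurotransmitter carrier median in 1. Beyond the alternatives' own construction, the causes were not tested. No paired analysis was possible because each day has 1 array, and for the same reason no replicate could be left out. Signal over background limits every difference that involves a value below 55.9.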

Other observations

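Of the 97 solute carrier genes below the mean signal threshold, 29 reached 56 on at least 1 array, and 7 were past 2-fold in at least 1 comparison. Slc5a11 had signals of 94.9 (day 0), 7.50 (day 1) and 10.3 (day 2), and Slc4a5 had 82.6, 35 and 9.20. Slc8a1 had 77.9, 1.8 and 49.6, and Slc6a21 had 65.5, 72.8 and 8.30. Slc2a6, given above, Slc2a10 (24.6, 71 and 6.60) and Slc32a1 (5.80, 70.1 and 27.7) were highest at day 1. Each of these 7 genes had a signal below the constant on at least 1 day, which leaves the size of the difference unresolved. Probe sets that name several genes were not used. Those with a solute carrier symbol numbered 5, with signals from 1.10 to 60.4.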
